A study of Mus musculus with 6 samples.

Results

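The KLF transcription factors were followed in mouse immature dendritic cells (imDCs) that had been put under fluid shear stress (FSS), the drag of a moving liquid on a cell surface, or had been left without flow. The members are the 10 genes Klf2, Klf3, Klf4, Klf6, Klf7, Klf9, Klf10, Klf11, Klf13 and Klf16, found by gene symbol among 18071 genes with values. The same table lists 17 KLF genes in all, and the other 7 are described after the members. The FSS group held 3 libraries of imDCs loaded with 10 dyn/cm2 for 3 hours in a cone-plate device, in which a turning cone moves the medium over the dish. The static group held 3 libraries of imDCs kept without flow. All cells came from bone marrow of male C57BL/6 mice 7 weeks of age. They had been grown over 7 days with GM-CSF at 20 ng/ml and IL-4 at 10 ng/ml and then isolated by CD11c. These are cells made in culture, so they stand in for dendritic cells of the body only in part. Replicate numbers 1 to 3 were used in both groups, and nothing in the labels ties a number to a separate mouse or culture, so p-values measure the spread between these libraries, which may be technical.

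KLF proteins bind CACCC and GC boxes in DNA through C-terminal zinc fingers and differ in the partners that their other parts recruit. Klf2 and Klf4 are known for their induction by steady flow in endothelium, through the kinases MEKK3, MEK5 and ERK5 and the factors of the MEF2 family. Klf6 and Klf7 are close relatives that mostly activate transcription. Klf3, with Klf8 and Klf12, represses through the corepressor CtBP. Klf9, Klf10, Klf11, Klf13 and Klf16 bind the corepressor SIN3A.

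The promoters of Klf2, Klf4, Klf3 and Klf9 are shown because the first pair is the flow-induced pair of endothelium and the second pair held the largest rise and the largest fall among the members. Each is 300 bases from RefSeq (assembly GRCm38.p6), 250 before and 50 from the annotated start onwards. Capitals mark the box CACCC, the GC box written GGGCGG, and the MEF2 consensus on either strand, and marked stretches may overlap. The Klf2 window is chr8:72318812-72319111 on the plus strand and the Klf4 window chr4:55532426-55532725 on the minus strand. The Klf3 window is chr5:64803271-64803570 and the Klf9 window chr19:23140976-23141275, both on the plus strand.
Klf2: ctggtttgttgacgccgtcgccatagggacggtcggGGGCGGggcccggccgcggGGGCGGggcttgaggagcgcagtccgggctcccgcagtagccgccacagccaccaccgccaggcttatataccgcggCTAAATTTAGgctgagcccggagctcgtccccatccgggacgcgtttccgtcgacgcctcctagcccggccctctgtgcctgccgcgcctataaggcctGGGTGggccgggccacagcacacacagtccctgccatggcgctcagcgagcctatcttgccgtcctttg
Klf4: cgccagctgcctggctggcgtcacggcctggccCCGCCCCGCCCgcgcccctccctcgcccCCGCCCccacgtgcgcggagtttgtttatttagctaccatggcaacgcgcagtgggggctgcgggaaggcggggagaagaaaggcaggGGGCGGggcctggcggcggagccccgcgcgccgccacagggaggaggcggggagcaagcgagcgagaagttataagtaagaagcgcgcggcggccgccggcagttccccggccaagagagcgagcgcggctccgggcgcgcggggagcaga
Klf3: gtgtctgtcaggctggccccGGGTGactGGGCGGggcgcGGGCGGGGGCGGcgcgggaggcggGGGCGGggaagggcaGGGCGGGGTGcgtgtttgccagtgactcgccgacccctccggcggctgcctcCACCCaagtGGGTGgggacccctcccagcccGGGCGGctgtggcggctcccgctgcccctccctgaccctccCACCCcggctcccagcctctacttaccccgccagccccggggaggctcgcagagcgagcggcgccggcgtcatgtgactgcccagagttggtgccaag
Klf9: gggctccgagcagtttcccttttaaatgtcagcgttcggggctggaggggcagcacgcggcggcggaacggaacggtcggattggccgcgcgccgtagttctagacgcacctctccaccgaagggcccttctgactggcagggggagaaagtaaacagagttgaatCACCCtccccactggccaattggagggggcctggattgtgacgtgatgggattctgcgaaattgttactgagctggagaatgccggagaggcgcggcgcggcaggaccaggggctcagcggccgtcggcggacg

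The MEF2 consensus occurred in the Klf2 window, 118 bases before the start, and in none of the other 7 member windows. It was held by 3.19% of 32851 windows of this length over all genes. CACCC was found in 5 of the 8 member windows, against 57.5% of all windows, and GGGCGG in 7 of 8, against 35.7%. Klf3 had 5 matches to CACCC and 6 to GGGCGG, Klf2 had 1 and 2, Klf9 had 1 and 0, and Klf4 had 0 and 4. The CArG box of serum response factor, GAANNTTC of heat shock elements and the cAMP response element TGACGTCA, searched on both strands, were in 0 of the 8. They were in 1.63%, 7.86% and 1.79% of all windows. These matches describe letters only and say nothing of binding in imDCs. Klf10 and Klf16 were not matched.

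Values are FPKM, fragments per gene divided by transcript length and by the mapped fragments of the library, a unit inferred from the deposited values, and levels of different genes are compared on that scale. The library sums ran from 413898 to 470596 FPKM, and the read depth behind them is unknown, so no counting interval is given. The first principal component (48.5% of the variance) set the libraries numbered 3 apart and the second (36.6%) set FSS apart from static. Libraries of the same number were taken as pairs, because their deviations went together. Pairings of unlike numbers were not compared. Whether a library numbered 1 goes with number 1 rather than number 2 of the other group was therefore not tested. Tests covered the 10899 genes that reached 1 FPKM in 3 or more libraries. Their median difference, FSS minus static, was -0.12 log2, and median-ratio scaling of the libraries moved that median by 0.14. Dendritic markers were high, with 9 of 10 at 1 FPKM in some library and a summed level of 7229 to 8846 FPKM in FSS libraries and 8277 to 9031 FPKM in static libraries. Flt3, the receptor that marks conventional dendritic cells, reached at most 0.61 FPKM under FSS and 0.67 FPKM in static cells. Markers of other cell types were also counted. Macrophage markers (8 of 8 at 1 FPKM) summed to 531 to 662 and 453 to 555 FPKM in FSS and static libraries, and neutrophil markers (9 of 9) to 258 to 434 and 290 to 523 FPKM. Endothelial markers (3 of 6) summed to 32.3 to 45.1 and 36.3 to 39.1 FPKM, nearly all of it Tek and Vwf, while Cdh5, which defines endothelium, stayed at 0.12 to 0.21 and 0.12 to 0.24 FPKM. Sums were at most 14.7 and 12.1 FPKM for mast cell and basophil markers (3 of 5), 4.83 and 5.91 for B cells (2 of 5), 1.75 and 2.38 for T cells (0 of 4), 2.66 and 3.05 for erythroid cells (1 of 5) and 0.06 and 0.06 for fibroblasts (0 of 4, with Dcn at 0 throughout). With the replicate number as a block, 5 of 9 dendritic markers tested fell (Irf4 also without it) and none rose, 2 of 8 macrophage markers rose and 1 fell, and 1 of 7 neutrophil markers fell. Likewise 1 of 3 endothelial and 1 of 2 mast cell and basophil markers rose, where 25.1% of all genes fell and 7.73% rose. With the block and median-ratio scaling, 3 dendritic markers fell, 5 macrophage markers rose and 1 fell, and 2 neutrophil markers rose and 1 fell. Both mast cell and basophil markers and 2 of the 3 endothelial markers rose then, where 16.8% of all genes fell and 19.2% rose. The part of other cells in the results below was not tested, and fewer cells of a type and less RNA per cell cannot be told apart in these bulk libraries.

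The KLF genes moved in both directions under FSS. Klf3 and Klf2 stood about 2-fold higher, Klf9 stood at 0.437 times its static level, and Klf7, Klf13 and Klf16 were moderately lower, while Klf4, Klf6 and Klf10 differed less. Of the 10 members, 9 could be tested and Klf11 was too low. In limma on log2(FPKM + 1), with Benjamini-Hochberg adjustment over all 10899 genes and a threshold of 0.05, 1 of the 9 fell (Klf9) and 0 rose. The background was 0.862% of all genes lower and 0.853% higher (1.72% in either direction), and 4 of the 9 had an unadjusted p under 0.05, against 18.1% of all genes. With the replicate number as a block, 2 rose (Klf2 and Klf3) and 4 fell (Klf7, Klf9, Klf13 and Klf16), where 7.73% of all genes rose and 25.1% fell (32.9% in either direction). With the block and median-ratio scaling together, 3 rose (Klf10 added) and the same 4 fell, against 19.2% and 16.8% of all genes (36% in either direction). The same 7 members were called with the block and without the libraries numbered 3, against 14.6% of all genes higher and 24.6% lower (39.2% in either direction). The median difference of the 9 was -0.29 log2, and -0.12 log2 over all genes tested. The share of members called in either direction was above that of all genes in these fits, without the block through Klf9 alone. The difference was not tested, the members are few, and they were chosen with earlier results of these data known. The description that follows therefore goes by the sizes and directions of the individual genes.

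**Figure D1:**
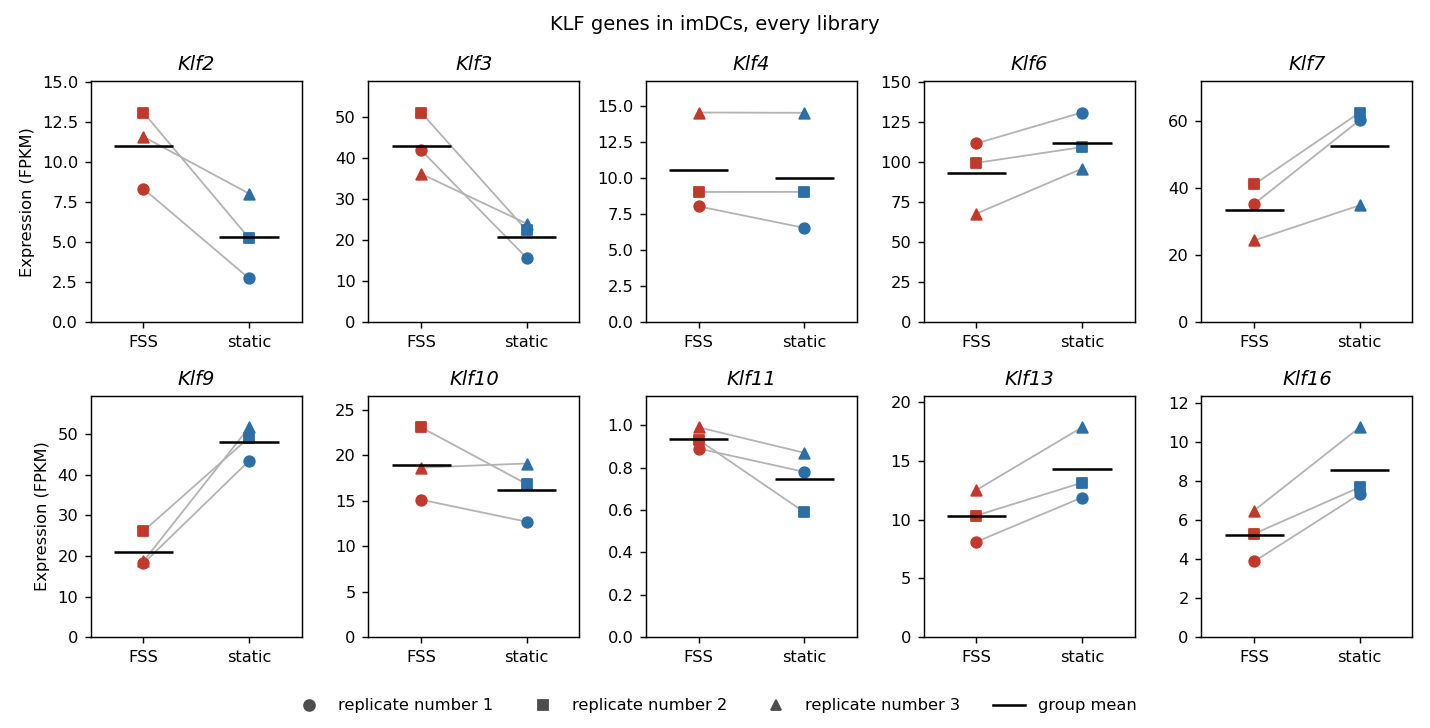
Expression of the 10 KLF genes in each library (FPKM, linear axes from 0), with FSS libraries in red on the left and static libraries in blue on the right. Marker shapes give the replicate number, grey lines join libraries of the same number and black bars are group means. All 3 FSS values lie above all static values for Klf2, Klf3 and Klf11 and below them for Klf9 and Klf16, while the lines of Klf4 for numbers 2 and 3 are flat.

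Klf2, which flow induces in endothelium and which keeps T cells and myeloid cells quiescent, had 8.32, 13.07 and 11.56 FPKM in FSS libraries 1 to 3. In static libraries 1 to 3 it had 2.74, 5.25 and 8.02 FPKM. The groups did not overlap, but FSS library 1 lay only just above static library 3. The means were 10.98 ± 2.43 and 5.34 ± 2.64 FPKM (SD, n = 3 each), a ratio of 2.06, and the log2 difference was 0.99 ± 0.32 (SE). The limma adjusted p was 0.164 without the block and 0.00444 with it. Klf2 was 3.04-fold higher in pair 1, 2.49-fold in pair 2 and 1.44-fold in pair 3, so all pairs shared the direction and the pair numbered 3 showed the smallest ratio. Without the libraries numbered 3 the blocked difference was 1.24 log2 (limma adjusted p = 0.000116). Leaving out pair 1 or pair 2 instead gave 0.82 and 0.90 log2 (limma adjusted p = 0.00415 and 0.00398). Each of these fits rests on 2 pairs and leans on the variance shared over all genes.

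Klf4, the other flow-induced KLF gene of endothelium and a factor of monocyte differentiation, had 8.04, 9.04 and 14.55 FPKM in FSS libraries 1 to 3, against 6.55, 9.05 and 14.53 FPKM in the static libraries of the same numbers. Its level went with the replicate number and hardly with the treatment, since pairs 2 and 3 were nearly level. The log2 difference was 0.09 ± 0.31 (SE), with limma adjusted p-values of 0.924 without the block and 0.536 with it. Of the 9 neutrophil markers, 3 (S100a9, Ltf and Ngp) were, like Klf4, highest in the libraries numbered 3 of both groups and the other 6 were not, and the part of neutrophils in the Klf4 level was not tested.

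Whether Klf2 and Klf4 differed in their response was asked of the ratio between them in each library. The log2 ratio of Klf2 over Klf4 (1 FPKM added to each) was 0.04, 0.49 and -0.31 in FSS libraries and -1.01, -0.69 and -0.78 in static libraries. All 3 FSS ratios were above all static ratios, and the mean difference was 0.90 log2. The two-sided exact permutation test over all 20 ways to assign the 6 libraries gave p = 0.1, the smallest p this design allows. The pairs gave 1.06, 1.17 and 0.48, all of the same sign. Permuting signs within pairs gave an exact p of 0.25, again the smallest that can be had from 8 sign patterns.

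Klf3, a repressor of the CtBP-binding group, had the largest log2 difference among the rises. It had 41.95, 51.15 and 36.19 FPKM in FSS libraries 1 to 3 and 15.72, 22.43 and 24.08 FPKM in static libraries 1 to 3. The lowest FSS value, in library 3, was well above the highest static value. The means were 43.1 ± 7.55 and 20.7 ± 4.43 FPKM (SD, n = 3 each), and the log2 difference was 1.03 ± 0.22 (SE). The limma adjusted p was 0.0651 without the block and 0.00317 with it, and 0.0298 with median-ratio scaling and no block. By pair the ratio was 2.67, 2.28 and 1.503, again smallest for number 3. Without those libraries the blocked difference was 1.26 log2 (limma adjusted p = 8.46e-05). It was 0.86 log2 without pair 1 and 0.97 log2 without pair 2 (limma adjusted p = 0.00243 and 0.00148).

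Klf9, which glucocorticoids and thyroid hormone induce in many tissues, was the member that fell without the block. Its values were 18.18, 26.13 and 18.69 FPKM under FSS, against 43.4, 49.13 and 51.65 FPKM in static cells. The highest FSS value was far below the lowest static value. The means were 21.0 ± 4.45 and 48.1 ± 4.23 FPKM (SD, n = 3 each), and the log2 difference was -1.17 ± 0.19 (SE), with limma adjusted p-values of 0.038 without the block and 0.00104 with it. The FSS level was 0.419, 0.532 and 0.362 times the static level in pairs 1, 2 and 3, so here the pair numbered 3 showed the strongest fall. Without the libraries numbered 3 the blocked difference was -1.05 log2 (limma adjusted p = 0.000223). The call without the block held when FSS replicate 3 was left out and was lost when any other library was left out, with limma adjusted p-values of 0.0271 to 0.161 over these 6 fits. The number of genes called in the whole table moved as well, between 0 and 176 lower over these fits, with the highest number without FSS replicate 3. The log2 difference of Klf9 itself stayed between -1.33 and -1.08.

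Klf13 and Klf16, relatives of Klf9 that also bind SIN3A, fell with the block. Klf13, known as an activator of Ccl5 in T cells, had 8.11, 10.34 and 12.51 FPKM under FSS and 11.87, 13.13 and 17.83 FPKM in static cells. The groups overlapped, though each FSS library lay below the static library of its number. The log2 difference was -0.43 ± 0.22 (SE), with limma adjusted p-values of 0.354 without the block and 0.0131 with it. Klf16 had 3.88, 5.3 and 6.49 FPKM under FSS and 7.33, 7.68 and 10.75 FPKM in static cells, without overlap. Its log2 difference was -0.63 ± 0.22 (SE), and its limma adjusted p was 0.185 without the block and 0.00448 with it. Both genes were highest in the libraries numbered 3, and pairs differed little in ratio (0.683, 0.788 and 0.702 for Klf13; 0.529, 0.690 and 0.604 for Klf16). The Klf13 call was lost when pair 1 was left out of the blocked fit (adjusted p = 0.0862).

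Klf10 and Klf11, the TGF-beta inducible members of the SIN3A-binding group, did not follow them. Klf10 had 15.11, 23.06 and 18.64 FPKM under FSS and 12.69, 16.83 and 19.09 FPKM in static cells, higher in pairs 1 and 2 and slightly lower in pair 3. The log2 difference was 0.21 ± 0.22 (SE; limma adjusted p = 0.696, and 0.186 with the block). It rose with the block and median-ratio scaling together (0.36 log2, adjusted p = 0.0121), or with the block and without the libraries numbered 3 (0.33 log2, adjusted p = 0.0236). Blocked fits without pair 1 or pair 2 gave 0.20 and 0.10 log2 and did not pass (limma adjusted p = 0.429 and 0.691). Klf11 reached 0.89, 0.93 and 0.99 FPKM under FSS and 0.78, 0.59 and 0.87 FPKM in static cells. It did not overlap between groups but stayed under 1 FPKM throughout and was not tested in the filtered fits, and with no filter its limma adjusted p was 0.446.

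Klf6 and Klf7 were the members with the highest static levels. Klf6, an early-response gene that promotes inflammatory gene expression in macrophages, had 111.87, 99.68 and 67.99 FPKM under FSS and 131.17, 109.54 and 96.1 FPKM in static cells. It was lower in each pair, yet the groups overlapped. The log2 difference was -0.29 ± 0.23 (SE; limma adjusted p = 0.59, and 0.0548 with the block), and -0.13 after median-ratio scaling. Klf7, known best from neural development, had 35.34, 41.16 and 24.44 FPKM under FSS and 60.34, 62.61 and 34.92 FPKM in static cells. Both groups were lowest in number 3, so the groups overlapped although each pair was lower under FSS (0.586, 0.657 and 0.7 times). The log2 difference was -0.62 ± 0.28 (SE), with limma adjusted p-values of 0.309 without the block and 0.00355 with it.

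**Figure D2:**
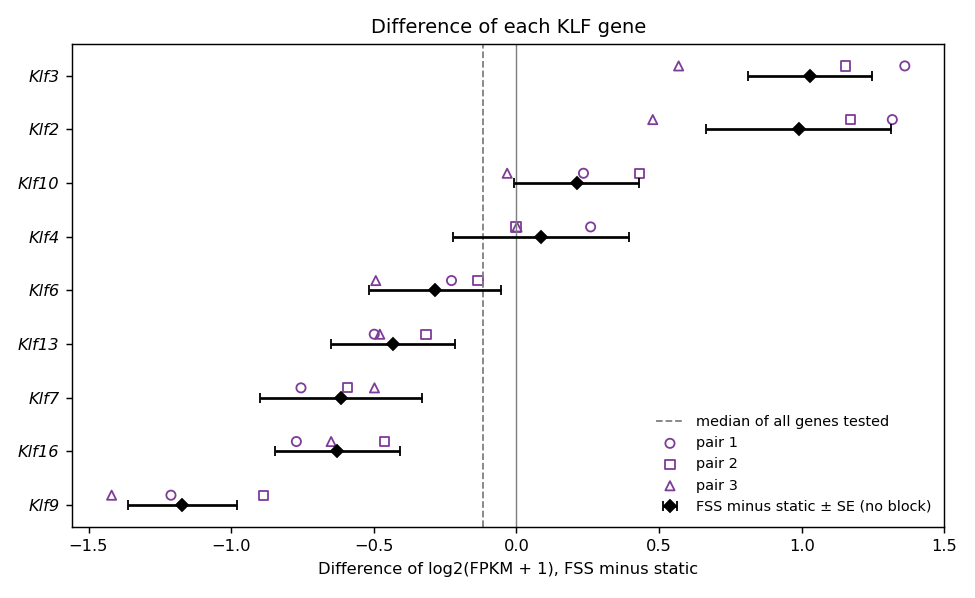
Difference of log2(FPKM + 1), FSS minus static, for the 9 KLF genes tested. Black diamonds with bars are the difference ± SE of the fit without the block, open symbols are the 3 pairs, the solid line is 0 and the dashed line the median of all 10899 genes (-0.12). Klf3 and Klf2 lie near 1, Klf9 lies at -1.17, and the pair numbered 3 gives the lowest of the 3 values for Klf2, Klf3, Klf6, Klf9 and Klf10.

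Of the 9 members tested, 2 were higher without overlap (Klf2 and Klf3), against 5.1% of all genes, and 2 were lower without overlap (Klf9 and Klf16), against 20.4%. In all 3 pairs 2 members were higher and 5 lower, against 17.1% and 47.3% of all genes. By pair, the 2 rises ranged from 0.48 to 1.36 log2 and the Klf9 fall from -1.42 to -0.89 log2. These genes are singled out for the size of their differences, so ranges apart from 0 add no support.

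The order of levels differed between the groups. Under FSS it was Klf6 (93.2 ± 22.7 FPKM), Klf3, Klf7, Klf9 (21.0 ± 4.45), Klf10, Klf2, Klf4, Klf13, Klf16 and Klf11 (0.937 ± 0.0503). In static cells it was Klf6 (112 ± 17.7 FPKM), Klf7, Klf9, Klf3 (20.7 ± 4.43), Klf10, Klf13, Klf4, Klf16, Klf2 and Klf11 (0.747 ± 0.143; SD, n = 3). Neighbours overlapped in their library values except Klf6 and its follower, Klf10 and Klf2, Klf13 and Klf16, and Klf16 and Klf11 under FSS, and except Klf6 and Klf7, Klf9 and Klf3, and Klf2 and Klf11 in static cells. Klf3 thus stood above Klf9 in every FSS library and below it in every static library.

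The summed level of the 10 genes was 252, 280 and 212 FPKM in FSS libraries 1 to 3 and 293, 296 and 278 FPKM in static libraries 1 to 3. Klf6 made up 44.4%, 35.6% and 32.1% of the sum under FSS and 44.8%, 37.0% and 34.6% in static cells. The Klf3 share was 16.7% to 18.3% under FSS and 5.37% to 8.67% in static cells, and the Klf9 share was 7.22% to 9.34% and 14.8% to 18.6%. Klf2 made up 3.31% to 5.45% under FSS and 0.936% to 2.89% in static cells. Shares add up to the whole, so a higher share of Klf3 lowers the others, and they are given as a description.

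**Figure D3:**
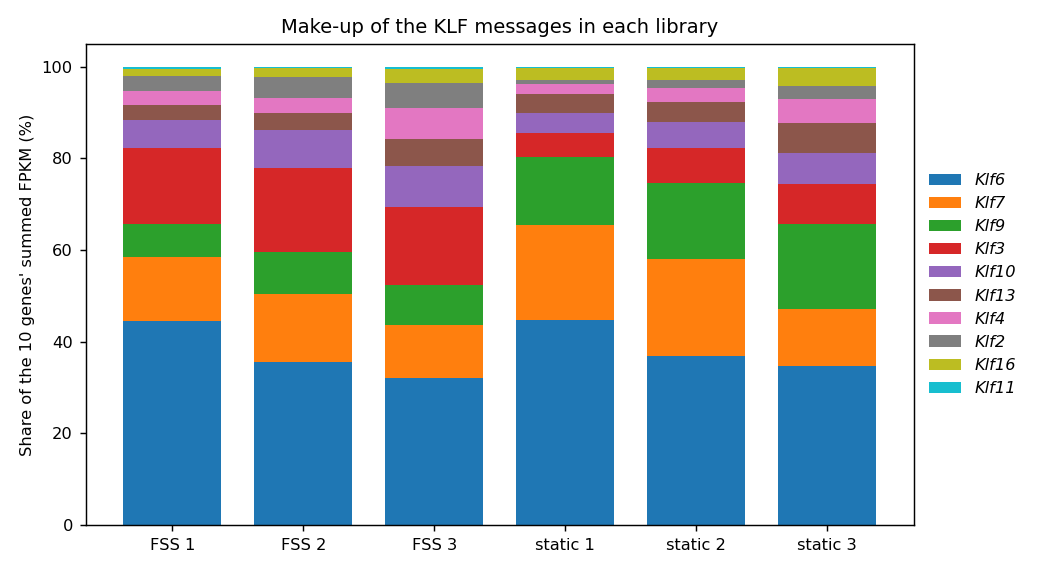
Share of each KLF gene in the summed FPKM of the 10 genes (percent, stacked from 0), for FSS libraries 1 to 3 on the left and static libraries 1 to 3 on the right. The Klf3 band is wider and the Klf9 band narrower in all FSS libraries than in any static library, while the Klf6 band is widest in number 1 of both groups.

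Of the 7 other KLF genes, 3 could be tested, and none passed without the block. Klf12, a CtBP-binding repressor like Klf3, had 2.66, 3.15 and 1.64 FPKM under FSS and 6.43, 6.78 and 2.8 FPKM in static cells. It was lower in each pair and fell with the block (log2 difference -0.82 ± 0.31, SE; limma adjusted p = 0.214 without and 0.00325 with the block), which is opposite to Klf3. Klf8, the third of that group, gave 1.37, 2 and 0.53 FPKM under FSS and 1.21, 1.88 and 1.26 FPKM in static cells, with no common direction over the pairs (limma adjusted p = 0.856). Klf5 gave means of 1.25 ± 0.494 and 0.813 ± 0.22 FPKM in FSS and static cells, with limma adjusted p-values of 0.0718 under the block, 0.022 once scaled too, and 0.0397 in the blocked fit that leaves out number 3. Klf1, the erythroid KLF gene, and Klf14, Klf15 and Klf17 stayed at or below 0.12 FPKM in each library. Among the SP genes, whose zinc fingers bind the same GC boxes, 3 of the 8 with values were tested. None passed without the block and 2 fell with it, where 25.1% of all genes fell. Sp1 had 8.62, 11.87 and 9.83 FPKM under FSS and 15.91, 16.8 and 14.97 FPKM in static cells, without overlap (log2 difference -0.61 ± 0.17, SE; limma adjusted p = 0.114, and 0.0052 with the block). Sp2 fell less (-0.32 log2, limma adjusted p = 0.0468 with the block, and 0.126 with scaling as well), and Sp3 stood at 17.97 ± 4.27 and 18.1 ± 3.31 FPKM. The medians were -0.13 log2 for the other KLF genes and -0.32 log2 for the SP genes.

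The genes of the endothelial flow pathway to Klf2 and Klf4 gave a picture that differed between fits. Of 12 tested, none passed without the block, and with it 3 fell and 0 rose, against 25.1% and 7.73% of all genes. With scaling as well, 4 rose and 2 fell, against 19.2% and 16.8% of all genes. The list median was 0.04 log2 (0.16 log2 scaled). In the unscaled blocked fit without the libraries numbered 3, Map3k2, which encodes the MEKK2 kinase, Hdac5, a deacetylase that holds MEF2 factors in check, and Mef2a were higher by 0.51, 0.50 and 0.32 log2. Their limma adjusted p-values there were 0.00315, 0.0117 and 0.0217, against 0.116, 0.13 and 0.409 with all pairs. In pair 3, which that fit leaves out, the differences of Map3k2, Hdac5 and Mef2a were -0.09, -0.05 and -0.21 log2. That fit called 14.6% of all genes higher. These genes are named after their values were seen. Mapk7, which encodes ERK5, had 5.65, 5.99 and 5.79 FPKM under FSS and 8.21, 9.27 and 8.72 FPKM in static cells, without overlap (-0.51 ± 0.14 log2, SE; limma adjusted p = 0.114, and 0.00618 with the block). Ccm2 and Pdcd10, adaptors that restrain MEKK3 signalling in endothelium, fell with the block too, at 15.0 and 21.7 FPKM and at 18.4 and 24.6 FPKM (means in FSS and static cells). Their limma adjusted p-values with the block were 0.00648 and 0.014, and that of Pdcd10 was 0.0567 after scaling. Krit1 of the same list, named after its values were seen, went the other way (0.14 log2, limma adjusted p = 0.322 with the block). With scaling as well Krit1 rose (0.29 log2, limma adjusted p = 0.0269). Without the libraries numbered 3, Mapk7, Ccm2 and Pdcd10 gave -0.51, -0.47 and -0.40 log2 (blocked limma adjusted p = 0.00436, 0.00426 and 0.00779). Map3k3, the MEKK3 gene, stood at 13.85 ± 0.411 and 15.77 ± 0.0889 FPKM, without overlap. Map2k5, the MEK5 gene, stood at 14.0 ± 3.20 and 13.0 ± 1.22 FPKM. Neither passed with the block (limma, 0.175 and 0.633), and both are named after their values were seen. Mef2c, a MEF2 gene of myeloid and lymphoid cells, was at most 0.69 FPKM under FSS and 0.70 FPKM in static cells and was not tested; it is named after its values were seen.

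Of 12 corepressors and coactivators of KLF proteins tested, none passed without the block. With it 6 fell and 0 rose, against 25.1% and 7.73% of all genes. With scaling as well only 2 fell, against 16.8% of all genes, and the unscaled median was -0.32 log2. Hdac2, a histone deacetylase of the SIN3 complex, stood at 7.68 ± 0.358 and 11.4 ± 1.45 FPKM, and its partner Hdac1 at 23.8 ± 3.03 and 32.4 ± 1.499 FPKM in FSS and static cells. In the blocked limma fit they had adjusted p-values of 0.00786 and 0.0123. The acetyltransferase gene Kat2b stood at 6.09 ± 1.497 and 9.88 ± 1.08 FPKM (0.00511 in that fit). Hdac1 missed the threshold after scaling (0.0604). Ctbp1, the partner of Klf3, had 30.08, 36.69 and 42.53 FPKM under FSS and 42.24, 43.24 and 54.26 FPKM in static cells (limma adjusted p = 0.0249 with the block, and 0.143 with scaling as well). Crebbp, a coactivator and acetyltransferase, had 42, 41.45 and 23.17 FPKM under FSS and 33.27, 33.47 and 27.7 FPKM in static cells, higher in pairs 1 and 2 and lower in pair 3. Its limma adjusted p was 0.478 with the block and 0.0185 (0.31 log2) without the libraries numbered 3. Ctbp1 and Crebbp were added after their values were seen.

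Of the 4 ubiquitin ligases known to act on KLF proteins, none passed without the block. With it 1 fell and 0 rose, against 25.1% and 7.73% of all genes. With scaling as well 1 fell and 1 rose, against 16.8% and 19.2%, and the unscaled median was 0.02 log2. Itch, a ligase of KLF10 protein, stood at 26.3 ± 8.12 and 40.0 ± 8.50 FPKM in FSS and static cells, and its blocked limma adjusted p was 0.00457. Fbxw7, a substrate receptor for KLF2 and KLF5 proteins, had 14.76, 12.63 and 11.34 FPKM under FSS and 8.66, 9.16 and 10.74 FPKM in static cells, without overlap. Its limma adjusted p was 0.0509 with the block and 0.00334 with scaling as well. Wwp1 gave 0.10 log2 and did not pass with the block (limma adjusted p = 0.629), but did so without the libraries numbered 3 (0.30 log2, 0.0389). In pair 3 its difference was -0.31 log2.

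The list of known KLF2 and KLF4 targets was mixed. Of 10 genes 7 were tested, and none passed without the block. With it 1 rose and 1 fell, where 7.73% of all genes rose and 25.1% fell. With scaling as well 4 rose and 1 fell, against 19.2% and 16.8% of all genes. The unscaled list median was 0.16 log2. Plpp3, a flow-induced lipid phosphatase of endothelium, had 36.22, 21.26 and 22.00 FPKM under FSS and 14.87, 8.35 and 19.80 FPKM in static cells (0.88 ± 0.33 log2, SE; limma adjusted p = 0.213, and 0.0168 with the block). Its groups did not overlap, and pair 3 contributed little, with 0.15 log2. Cdkn1a, the cell-cycle inhibitor p21, had 187.73, 257.6 and 339.7 FPKM under FSS and 397.15, 352.27 and 556.87 FPKM in static cells (-0.75 ± 0.27 log2, SE; limma adjusted p = 0.193, and 0.00357 with the block). Pfkfb3, a glycolytic regulator, stood at 13.2 ± 3.70 and 10.9 ± 3.24 FPKM and did not pass with the block (0.12), but rose with scaling as well (0.41 log2, limma adjusted p = 0.0145). Thbd, the anticoagulant thrombomodulin and an endothelial KLF2 target, fell short of the filter and is named after its values were seen. It had 1.6, 0.86 and 2.37 FPKM under FSS and 0.08, 0.16 and 0.29 FPKM in static cells, a clear separation at low levels (limma with no filter, 1.11 log2, adjusted p = 0.124). Nos3, a further endothelial target also added after its values were seen, stayed at or below 0.06 FPKM in each library.

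Around Klf10 and Klf11, the TGF-beta list held the only rise of these lists without the block. Of 7 genes 1 rose (Smad3), against 0.853% of all genes. With the block 3 rose and 2 fell, against 7.73% and 25.1% of all genes. With scaling as well 4 rose and 1 fell, against 19.2% and 16.8%, and the unscaled median was 0.15 log2. Smad3, which carries the TGF-beta signal to the nucleus, had 8.76, 6.12 and 6.32 FPKM under FSS and 0.79, 1.32 and 0.69 FPKM in static cells (limma adjusted p = 0.0133). Tgfbr2, the type II receptor, had 31.78, 32.11 and 27.77 FPKM under FSS and 12.03, 18.08 and 20.21 FPKM in static cells (limma adjusted p = 0.0939, and 0.00706 with the block). Tgfb1, the ligand, stood at 178 ± 29.2 and 236 ± 47.0 FPKM and fell with the block (0.0084), but not after scaling (0.0813). Smad2, named after its values were seen, stood at 9.47 ± 3.07 and 12.85 ± 2.57 FPKM in FSS and static cells. It fell with the block (limma adjusted p = 0.0193) and with scaling as well (0.0263). So Tgfbr2 and Smad3 were higher where Tgfb1 and Smad2 were lower, and Klf10 and Klf11 differed by 1.17-fold and 1.25-fold in their means.

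The list chosen to stand beside Klf9 holds glucocorticoid targets and Nr3c1, the gene of the glucocorticoid receptor. Of the 5 genes tested, 2 were lower and 2 higher in all 3 pairs, against 47.3% and 17.1% of all genes. None of the 5 passed without the block. With it 1 rose and 0 fell, against 7.73% and 25.1% of all genes. With scaling as well 2 rose and 0 fell, against 19.2% and 16.8%. The median of -0.09 log2 turned to 0.07 after scaling. Tsc22d3, the glucocorticoid-induced leucine zipper GILZ, had 18.55, 16.48 and 22.11 FPKM under FSS and 8.01, 7.69 and 11.46 FPKM in static cells, without overlap. It gave 1.01 ± 0.20 log2 (SE; limma adjusted p = 0.057, and 0.000885 with the block), opposite to Klf9. Fkbp5 stood at 12.1 ± 3.63 and 14.5 ± 3.80 FPKM and Per1 at 6.45 ± 1.18 and 5.41 ± 0.257 FPKM, and neither passed with the block (limma, 0.0842 and 0.173). Per1 rose with scaling as well (0.34 log2, limma adjusted p = 0.0149) and in the blocked fit without number 3 (0.0478).

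**Figure D4:**
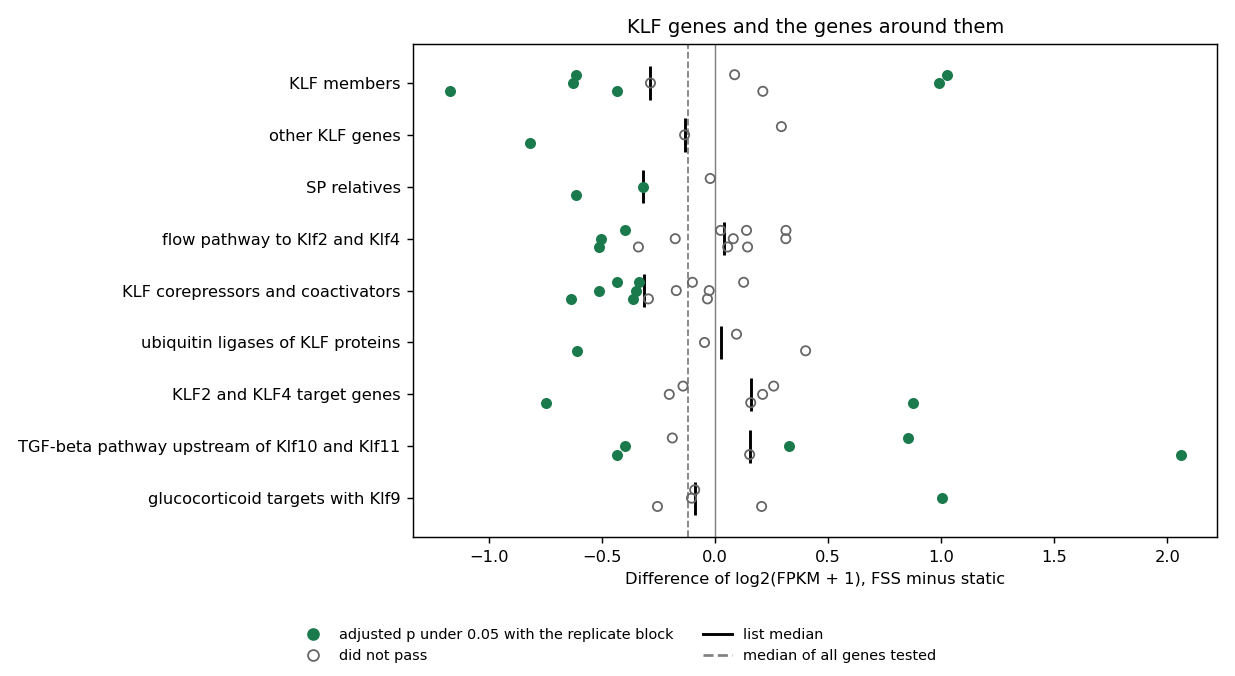
Difference of log2(FPKM + 1), FSS minus static, of each tested gene (points, spread vertically for legibility) in the KLF members and 8 lists of related genes. Filled points passed an adjusted p of 0.05 with the replicate block, open points did not, short black bars are list medians and the dashed line is the median of all genes (-0.12). The KLF members spread from -1.17 to 1.03, and Smad3 lies farthest to the right at 2.06.

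The genes nearest to the 2 leading members across the 6 libraries were looked up by the mean absolute distance of log2(FPKM + 1), each gene centred on its own mean, among 8874 genes with a mean of at least 2. Nearest to Klf3 was Tgfbr2 of the list above (0.09 log2 apart on average). The next was BGIG10090_45105, an entry without a gene name, at 87.61, 96.81 and 70.25 FPKM under FSS and 30.69, 33.91 and 44.84 FPKM in static cells (0.10). Dvl2, a scaffold of Wnt signalling, followed with 11.71, 12.14 and 9.35 FPKM under FSS and 3.52, 5.29 and 4.54 FPKM in static cells (0.11). Nearest to Klf9 were Ndst2, an enzyme of heparan sulfate modification, at 9.16, 13.92 and 8.98 FPKM under FSS and 21.94, 23.99 and 24.46 FPKM in static cells (0.05), Themis2 (0.06), a signalling scaffold of myeloid and B cells, and Aen (0.09), a p53-induced nuclease. Likeness over 6 libraries of 2 groups is a description, since any gene with a similar difference between the groups will lie near.

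Some members overlap other annotated genes, and whether the counting used strand is not given in the sources used here. Klf3 overlaps Gm20033 on the other strand and C230096K16Rik on its own (GENCODE M21). Klf7 overlaps Gm13748 and Gm26649 on the other strand and the microRNA entry Mir6899 on its own. Klf13 overlaps E030018B13Rik and Gm27252, both on the other strand. Reads of these neighbours cannot be told apart from those of the KLF genes with certainty. Klf2, Klf4, Klf6, Klf10, Klf11 and Klf16 overlap no other annotated gene there, and Klf9 overlaps only a microRNA entry.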

How the data were processed

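RNA of 3 FSS and 3 static imDC libraries was analysed, grouped by the submitters' sample titles. The authors deposited, for the whole series and per sample, expression values of 22899 genes, identical in both (6 of 6 libraries), and 4828 genes were blank. Per the file headers the unit is only "Expression". FPKM was inferred from the deposited values, since library totals differ, and values times transcript length sum to the order of magnitude that FPKM gives. A search of low values found no clear steps of whole reads, so depth is unknown. HISAT and Bowtie2 are listed in the submitters' processing notes. Which program quantified the genes, and on which build, annotation and strand setting, is not given in the sources used here.

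The difference between FSS and static cells was tested on log2(FPKM + 1), a scale that understates the change of low genes, with limma 3.58.1 (R 4.3.3) and a mean-dependent variance trend. Genes had to reach 1 FPKM in 3 or more libraries, which left 10899, and p-values were two-sided and Benjamini-Hochberg adjusted over all of them. It was tested on simulated data. Same-numbered libraries correlated in their deviations from the group means (Pearson r across genes of 0.79, 0.66 and 0.87 for numbers 1, 2 and 3). Correlations between unlike numbers were not computed. The pairing thus comes from the data and not from the labels, and blocked fits stand beside the unblocked ones. The block was chosen from the same values that it tests, so blocked p-values hold only if the pairing is real. Other settings tried were 0.1 as pseudocount, all genes unfiltered, 0.01 as threshold, 2 scalings, the block with scaling, and libraries left out. Blocked fits with 1 pair left out were added after seeing the data. Members and lists were chosen with earlier results of these data known. All members are named, other KLF and SP genes that passed the filter, and up to 3 genes per list by smallest p, apart from those said to be added.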

Additional observations from a re-analysis of the deposited data

How the results depend on the processing

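Without the block, 0 members were called higher and 1 lower. Leaving out each library in turn gave 0 to 1 higher (Klf3, without FSS replicate 3) and 0 to 1 lower (Klf9, also without FSS replicate 3). Over all genes these fits called 3 to 291 higher and 0 to 176 lower, against 93 and 94 with all libraries. With both libraries numbered 3 left out it was 1 member higher and 2 lower (402 and 373 of all genes). With no filter (0 and 0 of all genes) or a threshold of 0.01 (4 and 1) the count of lower members was 0. Median-ratio scaling gave 1 higher and 1 lower (158 and 71 of all genes). The replicate block gave 2 higher and 4 lower (842 and 2739 of all genes), and with median-ratio scaling as well 3 and 4 (2092 and 1829). With the block and 1 pair left out it was 2 to 3 and 3 to 4 (480 to 1594 and 1642 to 2676 of all genes). For single members, 153 alternative values were computed: 114 kept direction and call, 30 gained a call, 7 lost it and 2 changed sign. The losses were all of Klf9, and the sign changes were of Klf4, which was not called (-0.149 without FSS replicate 3 and -0.155 without static replicate 1; range -0.155 to 0.365 with 1 library left out). The cause of these changes was not tested. Blocked calls of Klf2, Klf3, Klf7, Klf9 and Klf16 held in each of 3 fits with 1 pair left out, and that of Klf13 in 2 of 3. Klf10, not called with the block and all pairs, passed in 1 of these 3 fits. The difference between Klf2 and Klf4 ran from 0.695 to 1.09 log2 with 1 library left out and was 1.03 with a pseudocount of 0.1. Its pairing gave p = 0.25 (exact), and fewer libraries allow no smaller p than 0.2. Over all genes the replicate block raised the calls from 187 to 3581. Unknown depth limits above all Klf11 and the genes near 1 FPKM.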
